A study of Mus musculus with 5 samples.

Results

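Genes of Wnt signalling at and outside the cell surface were examined in aortas of mice with a mutated leptin receptor (Lepr, allele db). The members were chosen by name and not by signal, though earlier results of these data were known. They were every gene of the array annotated as Wnt, Fzd, Sfrp or Dkk followed by a number, together with Frzb, Wif1, Lrp5, Lrp6, Axin2, Lef1 and Tcf7l2. This gave 43 genes of the 12393 named on the array, read by 65 probe sets. They comprised 19 Wnt ligands, 9 frizzled receptors, the 2 co-receptors Lrp5 and Lrp6, 6 antagonists that bind Wnt itself (the Sfrp genes, Frzb and Wif1), 4 Dickkopf genes, and the nuclear factors Lef1 and Tcf7l2 with the feedback target Axin2.

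Homozygotes (Lepr db/db), a model of obesity with type 2 diabetes, were compared with heterozygotes (Lepr db/+). All were males aged 16 to 20 weeks on regular chow, from the Jackson strain BKS.Cg-m +/+ Lepr db/J. That strain name also holds the coat colour allele m (misty), and the labels do not say which group carried it. The controls themselves carry 1 copy of db, and the mutation is present in every cell of the body, so an effect on the vessel cannot be told apart from an effect of obesity or high glucose. Each array held the pooled RNA of 6 aortas from which, per the design text, the adventitia and the surrounding fat had been taken off. Fat cell markers still gave signal in every array. Their summed signals ran from 8220 to 14370 for white and general adipocytes and from 5931 to 11600 for brown ones. How much fat remained was not tested. There were 3 db/db arrays (replicates 1, 2 and 3) and 2 db/+ arrays (replicates 2 and 3). A further db/+ pool that the design text implies was not analysed here.

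Wnt proteins are secreted, lipid-modified ligands that bind frizzled receptors on the cell surface, in the canonical branch together with the co-receptors LRP5 and LRP6. That branch keeps β-catenin from being degraded, and β-catenin then acts with TCF/LEF factors on target genes, of which Axin2 is a standard readout. Sfrp proteins, Frzb and Wif1 capture Wnt ligands, and Dickkopf proteins of the Dkk1 type block the co-receptors. In arteries the pathway is known for roles in smooth muscle growth, endothelial barrier function and calcification.

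Values were MAS5 signals, a linear brightness for each probe set, scaled by the authors to the same trimmed mean on every array. Levels of different probe sets cannot be set against each other. A summed signal of a marker list adds the brightest probe set of each gene, so its brightest genes weigh most. Such a sum is no measure of cell number. A log2 change is the mean of log2(signal + 16) in db/db minus that in db/+, with its standard error (SE) from limma, and a p was adjusted over all 13575 probe sets whose mean lay above the 40th percentile, a signal of about 39.5. Of the members, 29 probe sets of 21 genes lay above that level and were tested. Signal medians of the arrays lay between 59 and 61.5. The log2 signals of db/db replicate 1 correlated with those of the other arrays at r between 0.952 and 0.965, where the highest value of any pair was 0.977, and members refitted without this array are given with that value where it differs by over 1.5 times. Refits without another array are given for some members only. Fzd1, Fzd2, Sfrp5 and most second probe sets were not followed through any of these refits. Smooth muscle markers were measured for 10 of 10 genes and lay above the level of 39.5 in each case. Their summed signals were 26980 to 32700 in db/db and 24600 to 27780 in db/+. Cardiac muscle markers had a summed signal of 4148 in db/db replicate 2. It was 685 and 909 in the other db/db arrays and 1275 and 1686 in db/+.

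None of the 29 tested member probe sets passed the threshold of 0.05 on the adjusted p, in either direction (limma). Over all probe sets tested, 0.0% were called higher and 0.081% lower, so a set of this size would usually hold no call at that rate. At an unadjusted p under 0.05 there were 2 higher and 2 lower member probe sets, or 6.90% each way, beside 3.98% higher and 4.15% lower over all probe sets. At 5 higher and 5 lower member probe sets every db/db array lay beyond both db/+ arrays, or 17.2% each way, beside 13.1% and 11.9%. These shares rest on so few probe sets that 1 more or less would move them by several percent. Leaving out 1 array moved the counts at an unadjusted p under 0.05: without db/+ replicate 2 there were 0 higher and 1 lower, without db/+ replicate 3 or db/db replicate 1 there was 1 of each, without db/db replicate 2 there were 3 higher and 2 lower, and without db/db replicate 3 there were 1 higher and 3 lower. The median log2 change was -0.12 over the members and 0.017 over all probe sets tested. The member median was -0.038 without db/db replicate 2, -0.046 without db/+ replicate 2, -0.064 without db/+ replicate 3, -0.026 with no filter and -0.025 with the filter at the 60th percentile, so its distance from all probe sets depended on these choices. With all arrays and the filter at the 40th percentile, 12 of the 29 members had a positive change, beside 53.0% of all.

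**Figure D1:**
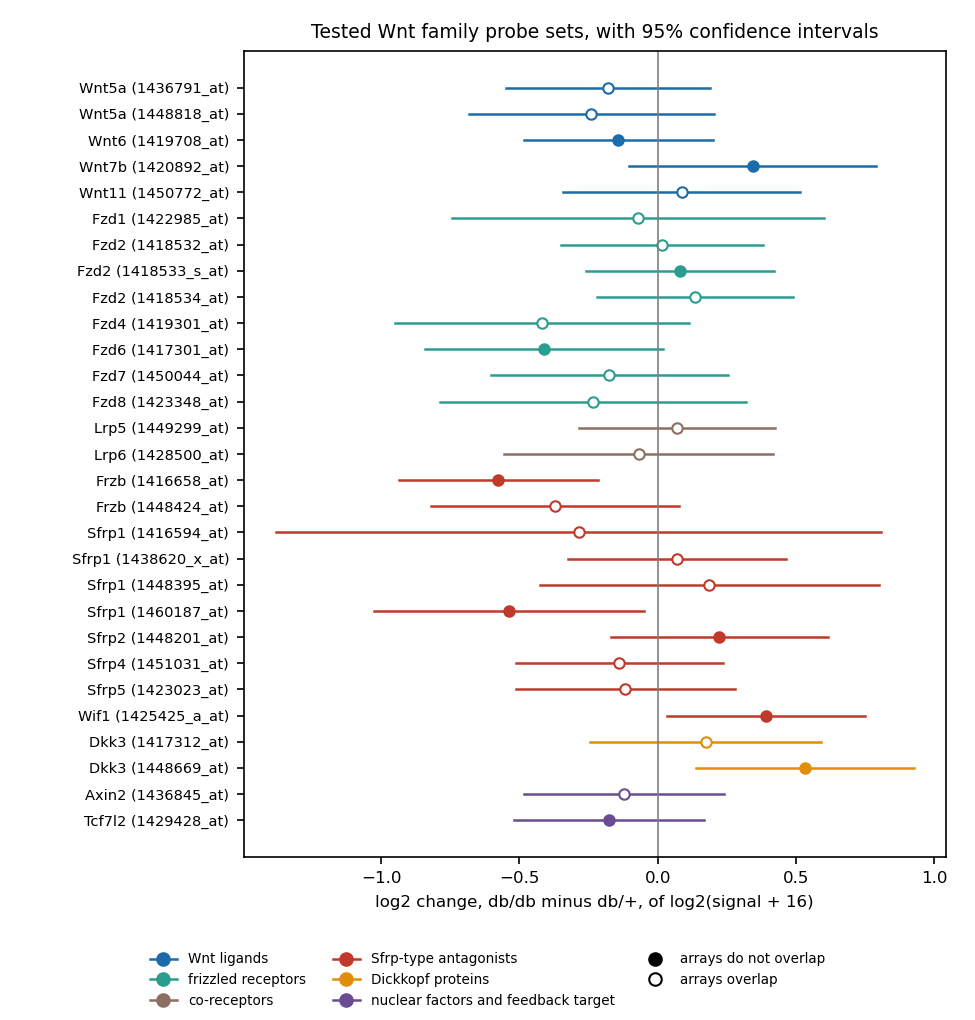
Log2 change of each tested probe set, db/db minus db/+, on the x axis with the 95% confidence interval from limma as a line, coloured by role. Filled points mark probe sets whose arrays do not overlap between genotypes. The intervals of Frzb (1416658_at) and Sfrp1 (1460187_at) lie below 0 and those of Wif1 and Dkk3 (1448669_at) above it before adjustment, and none of the 29 passed after adjustment.

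The secreted antagonists held all 4 of the member probe sets with an unadjusted p under 0.05, 2 in each direction, whereas none of the 17 tested probe sets of ligands, receptors, co-receptors and nuclear genes did. Over all probe sets tested the shares were 3.98% higher and 4.15% lower, so that 1 or 2 among 17 would lie near that rate. The difference between these roles was not tested, and in a fit without the filter probe sets of Wnt16, Wnt7a, Wnt10a and Tcf7l2 (higher) also reached an unadjusted p under 0.05. Frzb encodes a frizzled-related protein that binds Wnt ligands and is best known from cartilage. Its signals were 132, 142 and 124 in db/db replicates 1, 2 and 3 and 191 and 221 in db/+ replicates 2 and 3. Every db/db array lay below both db/+ arrays, with means of 133 ± 8.68 (SD, n = 3) and 206 ± 21.0 (SD, n = 2). The log2 change was -0.58 (SE 0.16, limma adjusted p = 0.32). A second probe set of Frzb, 1448424_at, had 33.6, 32.7 and 44.9 in db/db and 64.5 and 41.9 in db/+. Here the groups overlapped, since db/db replicate 3 lay above db/+ replicate 3, and the log2 change was -0.37 (SE 0.20, adjusted p = 0.69). Both probe sets of Frzb thus had lower means in db/db, by amounts that did not pass. Because each array read the RNA of all cells of the pooled aortas together, fewer cells that make a transcript and less transcript in each cell cannot be told apart, here or below.

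Wif1, the Wnt inhibitory factor, had a change of the opposite sign. Its signals were 82.7, 72.8 and 75.8 in db/db and 59.3 and 50.7 in db/+, so that all 3 db/db arrays lay above both db/+ arrays. The log2 change was 0.39 (SE 0.16, adjusted p = 0.57).

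The sequences at the start of Frzb and Wif1, the antagonists of the smallest p in each direction for which a promoter was given, are shown with that of Axin2, the standard target of the pathway. Each runs from 250 bases before to 50 bases after the RefSeq transcription start in GRCm38.p6, written 5′ to 3′ on the gene's strand. Capitals mark the GC box GGGCGG or its reverse complement.

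Frzb, chr2:80447347-80447646, minus strand: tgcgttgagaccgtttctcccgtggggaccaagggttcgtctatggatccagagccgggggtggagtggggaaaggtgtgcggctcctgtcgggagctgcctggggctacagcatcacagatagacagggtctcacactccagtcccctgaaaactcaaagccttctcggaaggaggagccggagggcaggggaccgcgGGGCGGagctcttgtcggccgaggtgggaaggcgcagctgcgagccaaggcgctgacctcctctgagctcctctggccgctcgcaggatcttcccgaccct

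Wif1, chr10:121033754-121034053, plus strand: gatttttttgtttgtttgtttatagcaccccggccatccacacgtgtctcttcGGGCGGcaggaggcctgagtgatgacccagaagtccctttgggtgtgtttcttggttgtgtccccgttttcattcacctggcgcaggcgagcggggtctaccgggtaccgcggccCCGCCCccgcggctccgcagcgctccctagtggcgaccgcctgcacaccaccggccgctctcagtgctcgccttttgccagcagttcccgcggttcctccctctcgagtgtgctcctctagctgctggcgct

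Axin2, chr11:108920099-108920398, plus strand: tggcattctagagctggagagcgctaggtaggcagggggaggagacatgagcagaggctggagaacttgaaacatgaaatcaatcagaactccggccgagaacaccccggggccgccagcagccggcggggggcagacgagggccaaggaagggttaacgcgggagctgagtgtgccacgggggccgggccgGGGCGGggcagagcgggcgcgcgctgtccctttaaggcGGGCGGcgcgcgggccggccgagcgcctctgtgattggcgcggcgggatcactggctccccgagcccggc

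The core of the TCF/LEF motif was searched on both strands as 4 forms, namely CTTTGAT in the first, CTTTGAA in the second, CTTTGTT in the third and CTTTGTA in the fourth. None of the 3 windows held any of these letters, which says only that they are not in these 300 bases. Over all 32851 promoters 16.9% held at least 1 of the 4 forms. Of 36 promoters given for 29 members, 7 (19.4%) did, namely those of Dkk1, Fzd7, Lef1, Tcf7l2, Wnt11, Wnt3 and Wnt5b. The GC box was present in all 3 windows, once in Frzb, 2 times in Wif1 and 2 times in Axin2, and stood in 75.0% of the member promoters and 35.7% of all promoters. A match is a description of the letters and does not show that a factor binds there.

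Sfrp1, the secreted frizzled-related protein 1 gene, was read by 4 tested probe sets that did not give the same picture. Probe set 1460187_at had 88.9, 88.0 and 141 in db/db and 169 and 148 in db/+, without overlap. The difference was -0.54 on the log2 scale (SE 0.21, adjusted p = 0.57). The brightest probe set, 1448395_at, had 364, 172 and 257 in db/db and 208 and 234 in db/+. Its db/db arrays lay on both sides of the db/+ arrays, and its log2 change was 0.19 (SE 0.27, adjusted p = 0.91). That value turned to -0.061 without db/db replicate 1 and was 0.45 without db/db replicate 2. The remaining probe sets of Sfrp1 had log2 changes of 0.07 (SE 0.17) at 1438620_x_at, a type that can also read related sequences, and -0.29 (SE 0.48) at 1416594_at. The last of these had a signal of 17.2 in db/db replicate 2, against 98.1 and 100 in the other db/db arrays. Thus no direction can be given for Sfrp1 as a gene.

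Sfrp2, another secreted frizzled-related protein, had 2066, 1590 and 1664 in db/db and 1533 and 1481 in db/+. The db/db arrays lay above the db/+ arrays by a small margin, and the difference was 0.22 (log2, SE 0.17, adjusted p = 0.82). Without db/db replicate 1 it was 0.11. Sfrp4 had 461, 377 and 382 in db/db and 434 and 461 in db/+, and the groups overlapped (-0.14, SE 0.16, adjusted p = 0.89). Leaving out db/db replicate 1 gave -0.23, and leaving out replicate 2 of that genotype gave -0.089. Sfrp5, which is also known as a secreted product of fat cells, had 46.6, 61.6 and 66.1 in db/db and 63.0 and 64.7 in db/+. Only the db/db replicate 1 array stood clearly below the others, and the log2 change was -0.12 (SE 0.17, adjusted p = 0.91). In the white and general adipocyte markers, measured for 8 of 10 genes, db/db replicate 1 also had the lowest summed signal, 8220, beside 11000 and 14370 in the other db/db arrays and 12010 and 12330 in db/+. Of the 12 tested probe sets of that list, 1 passed the threshold, lower in db/db, beside 0.081% lower over all probe sets. At an unadjusted p under 0.05 (limma) 1 was higher and 3 were lower. By gene, 2 had a positive and 6 a negative change (median -0.28). The part of fat in the Sfrp5 signal was not tested.

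Among the Dickkopf genes, Dkk3 alone was above the filter level. Dkk3 is a divergent member of the family that does not act on LRP5 and LRP6 in the way of Dkk1. At probe set 1448669_at it had 1364, 1123 and 1159 in db/db and 755 and 917 in db/+. All db/db arrays exceeded both db/+ arrays, with means of 1215 ± 130 (SD, n = 3) and 836 ± 115 (SD, n = 2), and the log2 change was 0.53 (SE 0.17, adjusted p = 0.44). Its other probe set, 1417312_at, had 793, 684 and 728 in db/db and 553 and 760 in db/+. There db/+ replicate 3 lay within the db/db range and the log2 change was 0.17 (SE 0.18, adjusted p = 0.87). The array db/+ replicate 2 was the lowest at both probe sets. Without it the log2 change at 1448669_at was 0.40, and without db/+ replicate 3 it was 0.67.

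**Figure D2:**
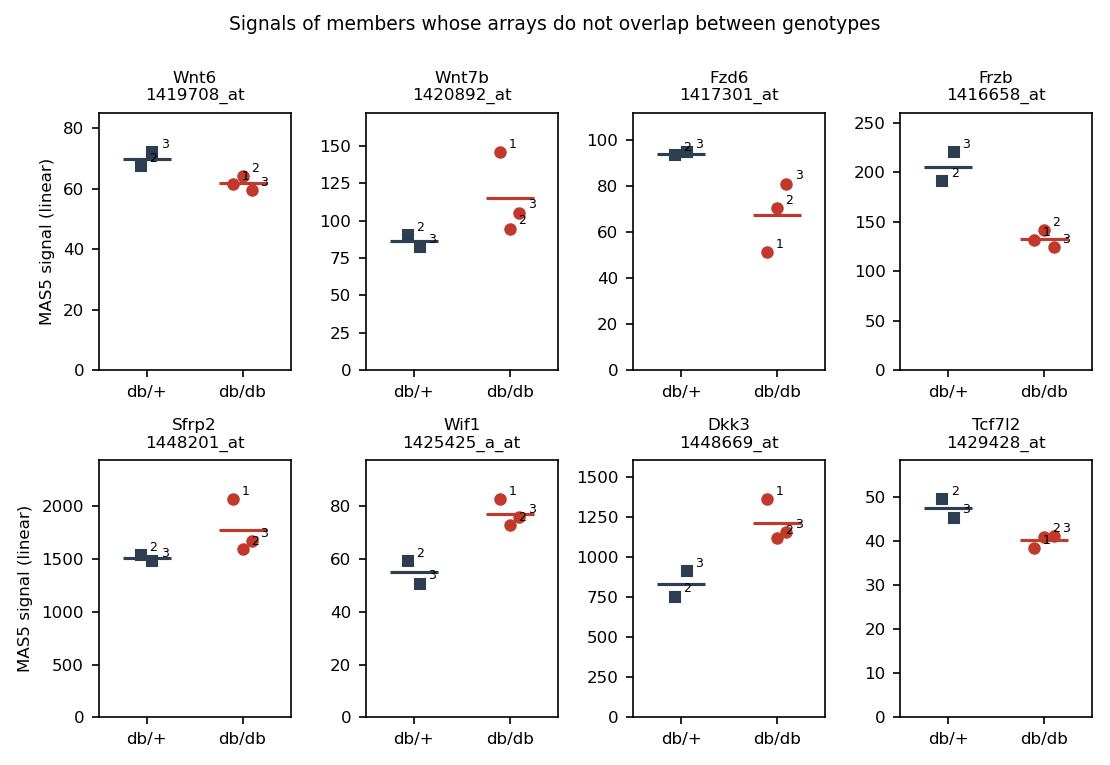
MAS5 signal (linear, y axis from 0) in each array for the 8 members whose brightest probe set was tested and does not overlap between genotypes. Squares are the 2 db/+ arrays and circles the 3 db/db arrays, numbered by replicate, and bars are group means. Frzb, Fzd6, Wnt6 and Tcf7l2 are lower and Wnt7b, Sfrp2, Wif1 and Dkk3 higher in db/db. The gap between the nearest arrays is narrow for Wnt7b (94.7 and 90.1), Wnt6 (64.1 and 67.6) and Sfrp2 (1590 and 1533).

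Of the 19 ligands, 4 had a probe set above the filter level. Wnt5a, which signals mainly through branches that do not need β-catenin, had 78.1, 79.5 and 96.7 in db/db and 101 and 94.6 in db/+. Only db/db replicate 3 reached the db/+ range. The log2 change was -0.18 (SE 0.16, adjusted p = 0.85), and the second Wnt5a probe set gave -0.24 (SE 0.19, adjusted p = 0.83). Wnt7b, a ligand of the canonical branch in many tissues, had 146, 94.7 and 105 in db/db and 90.1 and 82.3 in db/+. The groups did not overlap, but db/db replicate 2 lay close to db/+ replicate 2. The change was 0.34 (SE 0.20, adjusted p = 0.72), with a 95% interval from -0.10 to 0.79. Without db/db replicate 1, the highest array, it was 0.18.

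Wnt6 had 61.7, 64.1 and 59.7 in db/db and 67.6 and 72.2 in db/+, a narrow separation of -0.14 on the log2 scale (SE 0.15, adjusted p = 0.87). Wnt11, best known for cell movements in the embryo, had 64.6, 78.0 and 53.7 in db/db and 52.3 and 68.8 in db/+. These groups overlapped throughout, and the change of 0.09 (SE 0.19, adjusted p = 0.94) had the opposite sign without db/+ replicate 2 or without db/db replicate 2.

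Among the frizzled receptors, 6 of 9 genes were tested. Fzd6 had 51.4, 70.2 and 80.9 in db/db and 93.1 and 94.6 in db/+. Every db/db array was below both db/+ arrays, with replicate 1 farthest away, and the log2 change was -0.41 (SE 0.19, adjusted p = 0.64). Without replicate 1 it was -0.27. Fzd4, a receptor of endothelial cells that takes part in vessel growth and barrier formation in the retina, had 360, 600 and 377 in db/db and 638 and 537 in db/+. Here db/db replicate 2 lay inside the db/+ range while the other db/db arrays lay well below it, and the log2 change was -0.42 (SE 0.23, adjusted p = 0.71). Without db/db replicate 2 it was -0.64.

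Endothelial markers had lower signals in the db/db arrays, though none of them passed the threshold. All 10 of 10 genes of that list were measured and above the filter level, with none listed at 0. Their summed signal was 1374, 1681 and 1851 in db/db and 2273 and 2163 in db/+, and 9 of the 10 had a negative log2 change (median -0.44). Cdh5, Kdr, Nos3 and Cldn5 overlapped between genotypes at their brightest probe sets, with log2 changes of -0.06, 0.04, -0.21 and -0.09. Pecam1, Vwf, Tek, Tie1, Esam and Emcn were lower without overlap, as were 11.9% of all probe sets tested. At an unadjusted p under 0.05 (limma) 0 of the 11 tested probe sets of the list were higher and 6 lower. Over all probe sets these shares were 3.98% and 4.15%, and 53.0% had a positive change. Within db/db, Fzd4 was highest in replicate 2, whereas the endothelial sum was highest in replicate 3. The cardiac sum (685, 4148 and 909) and the brown adipocyte sum (5931, 11600 and 10310) were also highest in replicate 2 of db/db. In db/+ replicates 2 and 3 the cardiac sum was 1686 and 1275, and the brown adipocyte sum 7470 and 8519. The part of endothelial or other cells in the values of Fzd4 and Fzd6 was not tested.

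Fzd7 had 431, 450 and 381 in db/db and 563 and 402 in db/+, and the groups overlapped (-0.18, SE 0.19, adjusted p = 0.88). Leaving out db/+ replicate 2 gave 0.0595. Fzd8 had 167, 101 and 154 in db/db and 134 and 202 in db/+, and the log2 difference of -0.23 (SE 0.24, adjusted p = 0.87) was 0.038 without db/+ replicate 3 and -0.36 without db/db replicate 1. The log2 changes of these receptors were therefore within what 1 pool could turn.

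Fzd2 was read by 3 tested probe sets with similar small changes of 0.02, 0.08 and 0.14, each with an SE between 0.15 and 0.16. The brightest, 1418532_at, had 638, 523 and 594 in db/db and 576 and 576 in db/+, so that the db/db arrays lay on both sides of db/+. Its 95% interval ran from -0.35 to 0.38. At 1418533_s_at, with 474, 475 and 501 in db/db and 451 and 460 in db/+, the arrays did not overlap, though the difference was small (0.08, SE 0.15, adjusted p = 0.93). Fzd1 had 160, 72.7 and 152 in db/db and 148 and 112 in db/+ (-0.07, SE 0.30, adjusted p = 0.97), and its spread came from db/db replicate 2.

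The tested probe sets of both co-receptors overlapped between genotypes. Lrp5, known for its role in bone mass, had 49.8, 47.8 and 42.3 in db/db and 40.9 and 46.4 in db/+ (0.07, SE 0.16, adjusted p = 0.94). Without db/db replicate 1 its log2 change was 0.034. Lrp6 had 185, 288 and 243 in db/db and 217 and 282 in db/+. Its db/db arrays spanned the db/+ arrays on both sides, and the log2 change was -0.07 (SE 0.21, adjusted p = 0.96), with a 95% interval from -0.55 to 0.42. Leaving out db/db replicate 1 gave 0.094, and leaving out db/+ replicate 3 gave 0.11. Without db/db replicate 2 it was -0.21, and without db/+ replicate 2 it was -0.25. A further probe set of Lrp6 under the filter level, 1451022_at, had 6.7, 19.0 and 27.1 in db/db and 29.7 and 29.9 in db/+, without overlap.

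Axin2, a scaffold of the β-catenin destruction complex as well as a target, had 67.3, 72.7 and 63.0 in db/db and 81.8 and 68.5 in db/+, and db/db replicate 2 lay above db/+ replicate 3. The log2 change was -0.12 (SE 0.16, adjusted p = 0.90), with a 95% interval from -0.48 to 0.24, and it was -0.016 without db/+ replicate 2 and -0.23 without db/+ replicate 3. Tcf7l2, a TCF factor whose gene is linked to diabetes in people, had 38.3, 41.0 and 41.1 in db/db and 49.5 and 45.3 in db/+ at probe set 1429428_at. These arrays did not overlap, but the difference was small (-0.18, SE 0.15, adjusted p = 0.84), and the signals were close to the filter level.

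**Figure D3:**
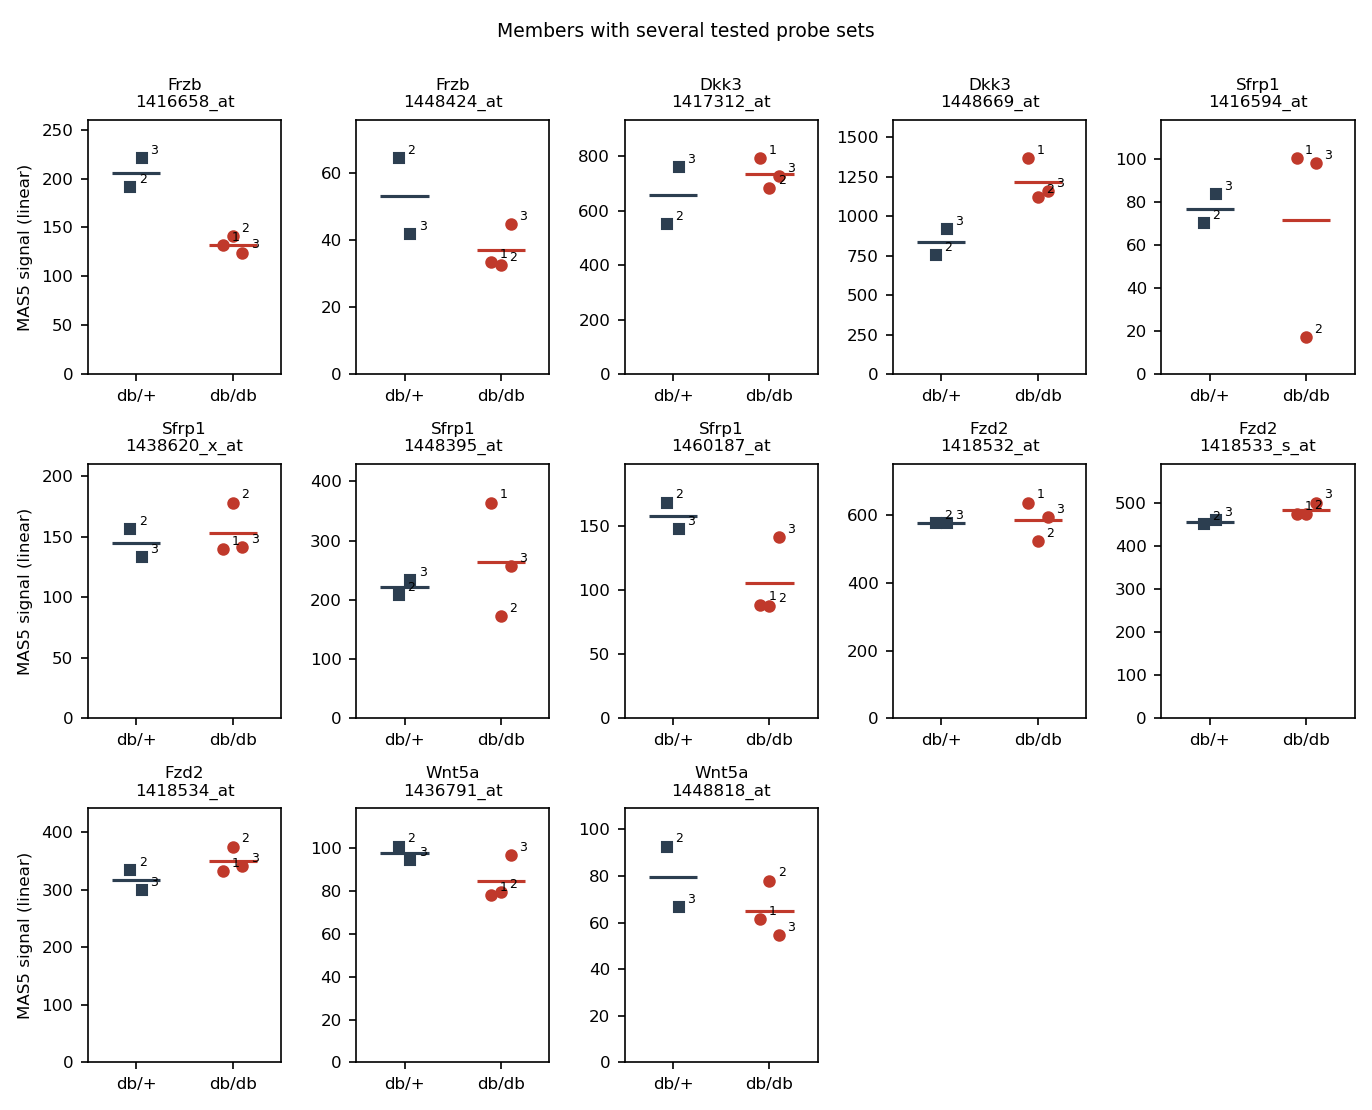
MAS5 signal (linear, y axis from 0) in each array for the 5 members with several tested probe sets. Squares are db/+ and circles db/db arrays, numbered by replicate, with bars at group means. Both probe sets of Frzb have lower means and both of Dkk3 higher means in db/db, while the 4 probe sets of Sfrp1 differ in sign.

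The other 36 member probe sets lay under the filter level, among them all those of 22 genes. These were Wnt1, Wnt2, Wnt2b, Wnt3, Wnt3a, Wnt4, Wnt5b, Wnt7a, Wnt8a, Wnt8b, Wnt9a, Wnt9b, Wnt10a, Wnt10b, Wnt16, Fzd3, Fzd5, Fzd9, Dkk1, Dkk2, Dkk4 and Lef1. Their signals ran from 1.2 to 56.6, with medians of 18.6 in db/db and 16.8 in db/+, and 9 of the 36 exceeded 39.5 on at least 1 array. Without detection calls a low signal does not show that a gene is off. In a fit without the filter, 4 of them were higher and 1 lower at an unadjusted p under 0.05, beside 3.49% higher and 3.53% lower over all 22626 probe sets, and the smallest adjusted p was 0.46. The 4 higher ones were Wnt16, Wnt7a, Wnt10a and a second probe set of Tcf7l2, 1426639_a_at, and the lower one was Dkk1.

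Wnt16 had the smallest p of these. Its signals were 17.4, 23.2 and 16.7 in db/db and 7.6 and 5.6 in db/+, all far under the filter level (log2 change 0.63, SE 0.16, adjusted p = 0.46). Dkk1, the best known co-receptor blocker, had 19.7, 20.5 and 18.6 in db/db and 29.3 and 28.1 in db/+ (-0.33, SE 0.14, adjusted p = 0.71). The probe set of Tcf7l2 had 27.0, 10.3 and 23.1 in db/db and 8.4 and 6.5 in db/+ (0.59, SE 0.23, adjusted p = 0.69), a sign opposite to the tested probe set of the gene. At such signals a difference of a few units sets the log2 change.

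Other genes of the pathway were taken from 3 lists chosen for their function, though with earlier results of these data known. Their counts are a description only. Of 28 genes for Wnt secretion and surface partners, 23 were measured and 16 tested, by 21 probe sets. None passed, with 1 higher and 1 lower at an unadjusted p under 0.05, beside 3.98% and 4.15% of all probe sets, and the median over genes was 0.08. Gpc3, a cell surface proteoglycan that binds Wnt and other ligands, had 146, 65.0 and 139 in db/db and 276 and 297 in db/+. Its arrays were well apart, and its log2 change of -1.26 (SE 0.29, adjusted p = 0.23) was larger than that of any tested member. Celsr2, an adhesion receptor of the planar polarity branch, had 100, 87.6 and 82.5 against 58.2 and 67.5 (0.43, SE 0.16, adjusted p = 0.54). Lgr5, a receptor for R-spondins, and Ror1, a receptor for Wnt5a, had log2 changes of 0.44 and 0.29, with overlapping arrays.

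Of 44 genes of the intracellular pathway, 36 were measured and 32 tested, by 50 probe sets. None passed, with 0 higher and 4 lower at an unadjusted p under 0.05, beside 3.98% and 4.15% of all probe sets, and 16 genes had a positive and 16 a negative change (median -0.01). The 4 lower probe sets were those of Tcf7l1, Tle2 and Axin1, where Tcf7l1 was read 2 times. Tcf7l1, a TCF factor that mostly represses, had 217, 223 and 226 in db/db and 333 and 284 in db/+. Its log2 change was -0.44 (SE 0.16, adjusted p = 0.49), and a second probe set gave -0.46. Tle2, a co-repressor, had -0.41 (SE 0.15), and Axin1, the scaffold of the β-catenin destruction complex, -0.40 (SE 0.16). Pygo2, a cofactor of β-catenin, had 0.31 (SE 0.17). Ctnnb1, which encodes β-catenin and is named for its place in the pathway after its value was seen, had a log2 change of 0.04 at its brightest probe set.

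Of 30 genes named as targets of Wnt and β-catenin in various tissues, 29 were measured and 18 tested, by 32 probe sets. None passed. At an unadjusted p under 0.05 there were 2 higher and 8 lower, beside 3.98% and 4.15% of all probe sets. The 8 lower ones belonged to 5 genes, with Ccnd1 counted 3 times, Vcan 2 times and Ccn5, Bmp4 and Sox17 once each, and both higher ones to Gja1. Of the list, 13 of the 18 genes had a negative change and the median was -0.12. Most of these targets also answer to other signals, so their level does not read Wnt activity alone. Ccnd1, which encodes the cell cycle protein cyclin D1, had 213, 215 and 213 in db/db and 330 and 309 in db/+. Its log2 change was -0.54 (SE 0.15, adjusted p = 0.32), and the other 2 probe sets of Ccnd1 gave -0.67 and -0.59. All 3 db/db arrays were below both db/+ arrays at each of these.

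Bmp4, a growth factor of the TGF-β family, had 207, 245 and 255 in db/db and 397 and 351 in db/+ (-0.63, SE 0.17, adjusted p = 0.30). Ccn5, a matricellular protein gene also called Wisp2, had 526, 363 and 440 in db/db and 806 and 676 in db/+ (-0.73, SE 0.19, adjusted p = 0.30). Gja1, which encodes the gap junction protein connexin 43, went the other way, with 1597, 1557 and 1410 in db/db and 1122 and 751 in db/+ (0.72, SE 0.20, adjusted p = 0.33). These 3 genes did not overlap between genotypes at the probe sets given.

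**Figure D4:**
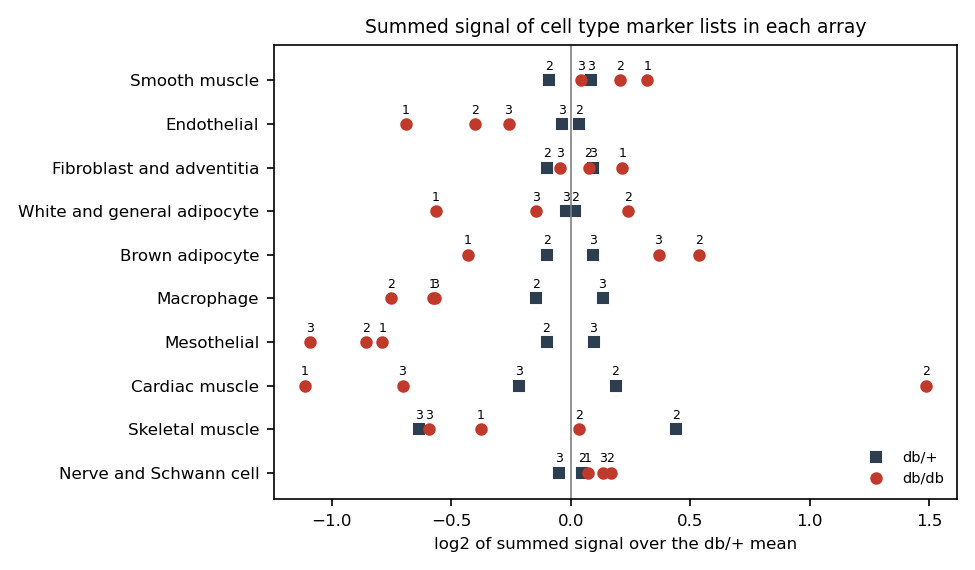
Summed signal of each cell type marker list in each array, as log2 over the mean of the 2 db/+ arrays (x axis), with squares for db/+ and circles for db/db, numbered by replicate. The endothelial, macrophage and mesothelial sums of all 3 db/db arrays lie below those of both db/+ arrays, and the cardiac sum was 4148 for db/db replicate 2, beside 685 and 909 for the other db/db arrays.

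Of the tested macrophage, mesothelial and fibroblast markers, 1 passed the threshold, the mesothelial list's Prg4. It was lower in db/db (-1.38, SE 0.17, limma adjusted p = 0.046), beside 0.081% called lower over all probe sets tested. At an unadjusted p under 0.05 (limma) 10 of 13 macrophage, 3 of 5 mesothelial and 0 of 14 fibroblast probe sets were lower. None of these lists held a higher one, and over all probe sets the shares were 4.15% lower and 3.98% higher. Among the other marker lists, 1 probe set of the white and general adipocyte list passed as well, also lower in db/db. The summed signals were not tested. Macrophage markers, measured for 10 of 10 genes with none listed at 0, had summed signals of 2497 to 2836 in db/db and 3802 to 4616 in db/+. Mesothelial markers, measured for 7 of 10 genes, had 483 to 596 in db/db and 960 to 1100 in db/+, with the defining markers Msln and Wt1 under the filter level. Fibroblast and adventitia markers, measured for 9 of 10 genes, had 16550 to 19840 in db/db and 15950 to 18210 in db/+, which overlapped. Smooth muscle sums overlapped too. Frzb (at its brighter probe set), Ccn5, Bmp4 and Gpc3 were lower in every db/db array than in both db/+ arrays. The endothelial, macrophage and mesothelial sums were too. Of all probe sets tested, 11.9% were lower in this way, so the match only restates the difference between genotypes and ties no gene to those cells. The part of these cells in the values of Frzb, Ccn5, Bmp4 and Gpc3 was not tested.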

How the data were processed

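Each of the 5 Affymetrix arrays held RNA pooled from 6 aortas (10 µg, per the labels), and titles gave the genotype. The deposited values are linear signal intensities, made by the authors with MAS5 per the submitters' processing notes; version, genome build and detection calls were not given in the sources used here. All arrays had a 2% trimmed mean of about 150.05, and nothing was rescaled. Of 22690 probe sets, 64 controls were dropped; 20380 of the rest had 1 symbol in the platform annotation, 691 several and 1555 none. The 65 member probe sets matched RefSeq names by Entrez identifier.

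Tests used limma 3.58.1 (R 4.3.3) on log2(signal + 16), with genotype as the only term, a two-sided p and Benjamini-Hochberg adjustment. Residual degrees of freedom were 3, and the prior added 5.63. The number of arrays limits the precision, and p-values measure the spread between pools. Members and lists were chosen with earlier results of these data known.

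Every tested member was named, with full values for those with an unadjusted p under 0.05 and up to 4 of the smallest p in each role; Fzd1, Fzd2 and Sfrp5 received values beyond that rule. Members under the filter were to be given by range and count, and those printed singly there were chosen after their values were seen. Each pathway list gave its 4 genes of smallest p, read at the brightest probe set. On simulated data the test found 53.4% of 2-fold and 98.3% of 4-fold changes, with 4.84% of its calls false. The changes of all tested members were smaller than 2-fold, and changes of that size were not simulated. Alternatives varied the pseudocount (1, 64), the filter (none, 60th percentile), the scaling (quantile, median centring), eBayes options, weights, a block for replicate numbers, the threshold (0.1) and the arrays included. Promoters came from RefSeq (GRCm38.p6), 36 windows for 29 members.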

Additional observations from a re-analysis of the deposited data

How the results depend on the processing

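The count of member probe sets past the threshold was 0 under all alternatives and at a threshold of 0.1, and so were those of the 3 pathway lists, for which that threshold was not run. Over 14 alternatives, 250 of 259 log2 changes of the 19 probe sets followed (18 genes; not Fzd1, Fzd2, Sfrp5 or most second probe sets) kept their sign and 9 did not, at Wnt11, Fzd7, Fzd8, Lrp6 and Sfrp1; Frzb ranged from -0.67 to -0.46, Dkk3 from 0.40 to 0.67 and Wif1, which was not tested at the 60th percentile, from 0.25 to 0.48. The filter and eBayes options cannot alter a log2 change, so the values under them were bound to keep their sign. The block gave the same log2 changes as leaving out db/db replicate 1. The 250 of 259 is therefore no measure of stability over 14 separate alternatives. The cause of the moves was not tested.

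Of the members, those higher with an unadjusted p below 0.05 numbered 6 with no filter and 1 with a pseudocount of 64, the 60th percentile, median centring, trend and robust, or the replicate block. Lower ones were 1 with array weights or the block. With arrays left out the higher ones ranged from 0 to 3 and the lower ones from 1 to 3. Non-overlapping ones were 13 higher and 8 lower of 65 with no filter (all probe sets: 12.7% and 10.6%), 2 lower of 18 at the 60th percentile (13.1%), and with arrays left out 6 to 9 higher and 6 to 11 lower of 28 to 30 (18.3% to 26.1% and 17.6% to 23.7%), where fewer arrays make non-overlap easier for every probe set. The median change of the members was -0.070 with a pseudocount of 64, -0.026 with no filter, -0.025 at the 60th percentile, -0.15 with median centring, -0.085 with array weights and -0.12 to -0.038 with arrays left out. The median over all probe sets moved too, from 0.017 to -0.020 with median centring. It was 0.014 with a pseudocount of 64, 0.019 with no filter and 0.0064 at the 60th percentile.

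Over all probe sets, 11 lower and 0 higher calls became 2 and 0 with a pseudocount of 1, 34 and 3 with 64, 1 and 0 with no filter, 20 and 2 at the 60th percentile, 18 and 1 with median centring, 34 and 5 with trend and robust, 41 and 7 with array weights, 18 and 2 with the block and 41 and 7 at a threshold of 0.1. With arrays left out they ranged from 0 to 24 lower and 0 to 4 higher; without db/+ replicate 2 there were 0 of either. Removing a db/+ array leaves 1, which is assumed to vary like the rest.

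The genotypes share the numbers 2 and 3, which the labels tie to nothing else. Deviations of same-numbered arrays correlated at 0.11 and -0.0048. With the number as a block db/db replicate 1 adds nothing, the change of Lrp6 was 0.094 and that of Sfrp1 -0.061. With arrays left out Wnt11 ranged from -0.069 to 0.24, Fzd7 from -0.41 to 0.0595, Fzd8 from -0.51 to 0.038, Lrp6 from -0.25 to 0.11 and Sfrp1 from -0.061 to 0.45.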

Other observations

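Probe sets of 1 gene differed in the pathway lists as well. Gja1, the connexin 43 gene, was read by 6 tested probe sets, all with a positive log2 change, from 0.06 at 1438973_x_at to 0.72 at 1437992_x_at. Axin1 had a log2 change of 0.13 (SE 0.18) at its second probe set, against -0.40 at the first. Vcan, which encodes the matrix proteoglycan versican, had -0.63, -0.46 and -0.36 at its 3 tested probe sets, each without overlap between genotypes (adjusted p = 0.26, 0.48 and 0.66). These genes were named here after their values were seen.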
